A study of Mus musculus with 5 samples.

Results

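The genes described here are 41 genes of the hexosamine pathway and of asparagine-linked (N-linked) protein glycosylation, followed in plasma cells, which are B cells that have matured to secrete antibody. They were chosen by name, and 41 of 41 were found among the 33456 genes of each count table. Single-cell RNA sequencing (10x 3' libraries) was done on CD138-high, Ly6g-negative and CD11c-negative plasma cells of unimmunized male C57Bl6/N mice aged 8 to 12 weeks. Cells were sorted in 2 rounds on B220 (a CD45 isoform carried by B cells) and on 2NBDG, a glucose analog whose fluorescence reports how much a cell has taken up. There were 5 groups: spleen B220+2NBDG-, spleen B220-2NBDG-, spleen B220+2NBDG+, spleen B220-2NBDG+ and bone marrow B220-2NBDG+. Each group was 1 library of cells pooled from 3 mice, so differences between libraries have no replicate check and no p-value. Levels are CPM: unique molecular identifiers (UMIs, each standing for 1 captured transcript) of all cells in a library, scaled to its non-immunoglobulin total.

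An antibody heavy chain carries N-linked glycans, and a plasma cell glycosylates very large amounts of protein. The hexosamine pathway makes UDP-N-acetylglucosamine, the first sugar donor of the process. Enzymes of the endoplasmic reticulum build a lipid-linked oligosaccharide from this donor and from activated mannose and glucose, and the oligosaccharyltransferase moves the finished sugar onto asparagines of new proteins. Glucosidases and mannosidases then trim the glycan, and Golgi enzymes add N-acetylglucosamine, fucose, galactose and sialic acid. The oligosaccharyltransferase exists in 2 forms that share most subunits. One is built on the catalytic subunit STT3A and glycosylates proteins as they enter the endoplasmic reticulum, and the other, built on STT3B, works on sites that were passed over.

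The 5 libraries held 894 to 1296 barcodes and 9451886 to 15591435 UMIs, and 5468 of 5476 cells were used after 8 T cell-like cells were left out. The plasma cell marker Sdc1, which encodes CD138, lay between 402 and 609 CPM. A list of 8 B cell markers summed to 1108 and 1187 CPM in the B220+2NBDG- and B220+2NBDG+ libraries, 1079 in B220-2NBDG- spleen, 761 in splenic B220-2NBDG+ and 595 in bone marrow. It was led by Cd79b (490.2 to 1017 CPM) and Ms4a1 (70.6 to 219), with Pax5 at 0 in the 3 B220- libraries and 0.15 and 0.18 in the B220+ libraries. The part of these markers in the B220 comparisons was not tested. T cell markers summed to 5.32 to 20.4 CPM in cells used, led by Cd3g (2.78 to 15.5 CPM), with Trbc1 at 0 in each library. Immunoglobulin genes took 47.0% of the UMIs of B220+2NBDG- spleen and 58.2% to 64.8% elsewhere. Jchain, the antibody joining chain, took 10.0% of the non-immunoglobulin UMIs of B220+2NBDG- spleen and 19.4% to 29.7% of the others. Cycling cells numbered 164 in B220+2NBDG- spleen, 12 in each of B220-2NBDG- and B220+2NBDG+ spleen, and 0 in both B220-2NBDG+ libraries. B220+2NBDG- spleen and splenic B220-2NBDG+ stood apart from the other libraries at some genes, and 0 of the 41 genes differed 2-fold or more along that line. The share of all genes that did so was not counted, so this 0 has no background beside it. Pairs of libraries shared 0 to 4 cell barcodes.

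Of the 41 genes, 28 had their highest level in B220+2NBDG- spleen and 33 their lowest in bone marrow. The background was the 3513 genes with a mean of at least 25 CPM over the libraries: 55.2% of these were highest in B220+2NBDG- spleen and 58.2% lowest in bone marrow. Summed, the 41 genes took 11785 CPM in B220+2NBDG- spleen, 8403 in B220-2NBDG- spleen, 9732 in B220+2NBDG+ spleen, 7765 in B220-2NBDG+ spleen and 6521 in bone marrow. Among the 32 genes at or above 25 CPM, the highest library exceeded the lowest by 1.19-fold for Dpm3 and by 4.02-fold for Ostc. The other 9 genes (Mpi, Pmm2, Alg14, Alg8, Alg9, Alg12, Tusc3, Mogs and B4galt1) fell below that mean and are left out of the counts of library differences that follow. They are within the 28 and the 33 but not within the background. Each except Alg14 was highest in B220+2NBDG- spleen, and each except Mpi and Tusc3 was lowest in bone marrow. The 28 and 33 are thus not on the same footing as the 55.2% and 58.2%.

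**Figure D1:**
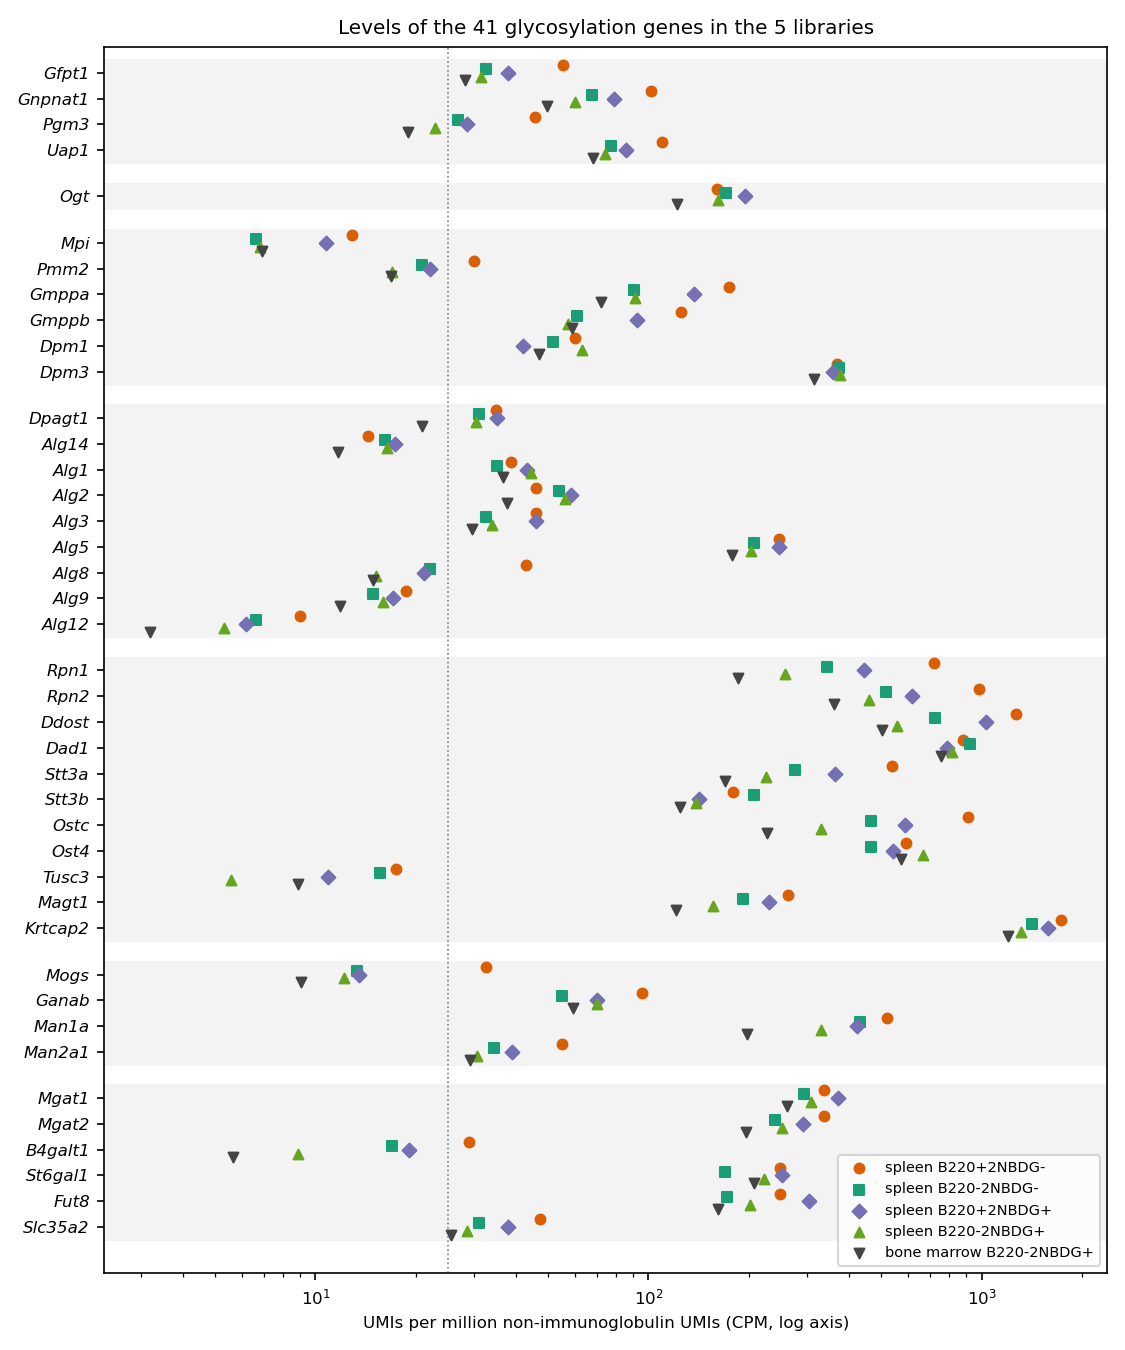
Level of each gene (CPM, log axis) in the 5 libraries, with genes grouped by role from the hexosamine pathway at the top to the Golgi enzymes at the bottom and 1 symbol per library (no replicates); the dotted line marks 25 CPM. B220+2NBDG- spleen lies farthest right for 28 of the 41 genes, and among the 32 genes at or above 25 CPM the spread between libraries is widest for Ostc, Rpn1 and Stt3a; below it, B4galt1 spans 5.11-fold and Mogs 3.61-fold.

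The comparison of B220+ with B220- cells asked which transcripts go with the B220 gate, once in 2NBDG- and once in 2NBDG+ spleen. In 2NBDG- spleen, 12 of the 32 genes were at least 1.5-fold higher in B220+ cells and 0 were at least 1.5-fold lower; 18.3% and 5.86% of all genes tested passed in these directions. The median log2 ratio of the 32 genes was 0.50, against 0.22 for all genes tested, a difference of 0.29. Of the 12, Rpn1 and Gmppb were past 2-fold, a size reached by 4.13% of all genes tested. In 2NBDG+ spleen, 7 of the 32 genes were at least 1.5-fold higher (8.37% of all genes tested) and 0 were lower (3.25%), with a median of 0.28 against 0.14. The 2 comparisons share no library. Gmppa, Gmppb, Rpn1, Ddost, Stt3a and Ostc passed 1.5-fold in both of them. The share of all genes tested that passed in both is not given here, so this overlap is not set against a background.

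These counts moved with the total used for CPM. When Jchain was left out of the total, 6 of the 12 genes and 3 of the 7 were still past 1.5-fold, with TMM-scaled totals 10 and 5 were, and with all UMIs as the total 12 and 2 were. Each kept its direction under every setting tried. A change of total moves all genes of a comparison by the same amount. Among all genes past 1.5-fold in 2NBDG- spleen, the share that was higher in B220+ cells went from 75.7% to 43.5% without Jchain, 61.4% with TMM and 96.7% over all UMIs. In 2NBDG+ spleen that share went from 72.1% to 47.3%, 56.3% and 32.9% in the same order.

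**Figure D2:**
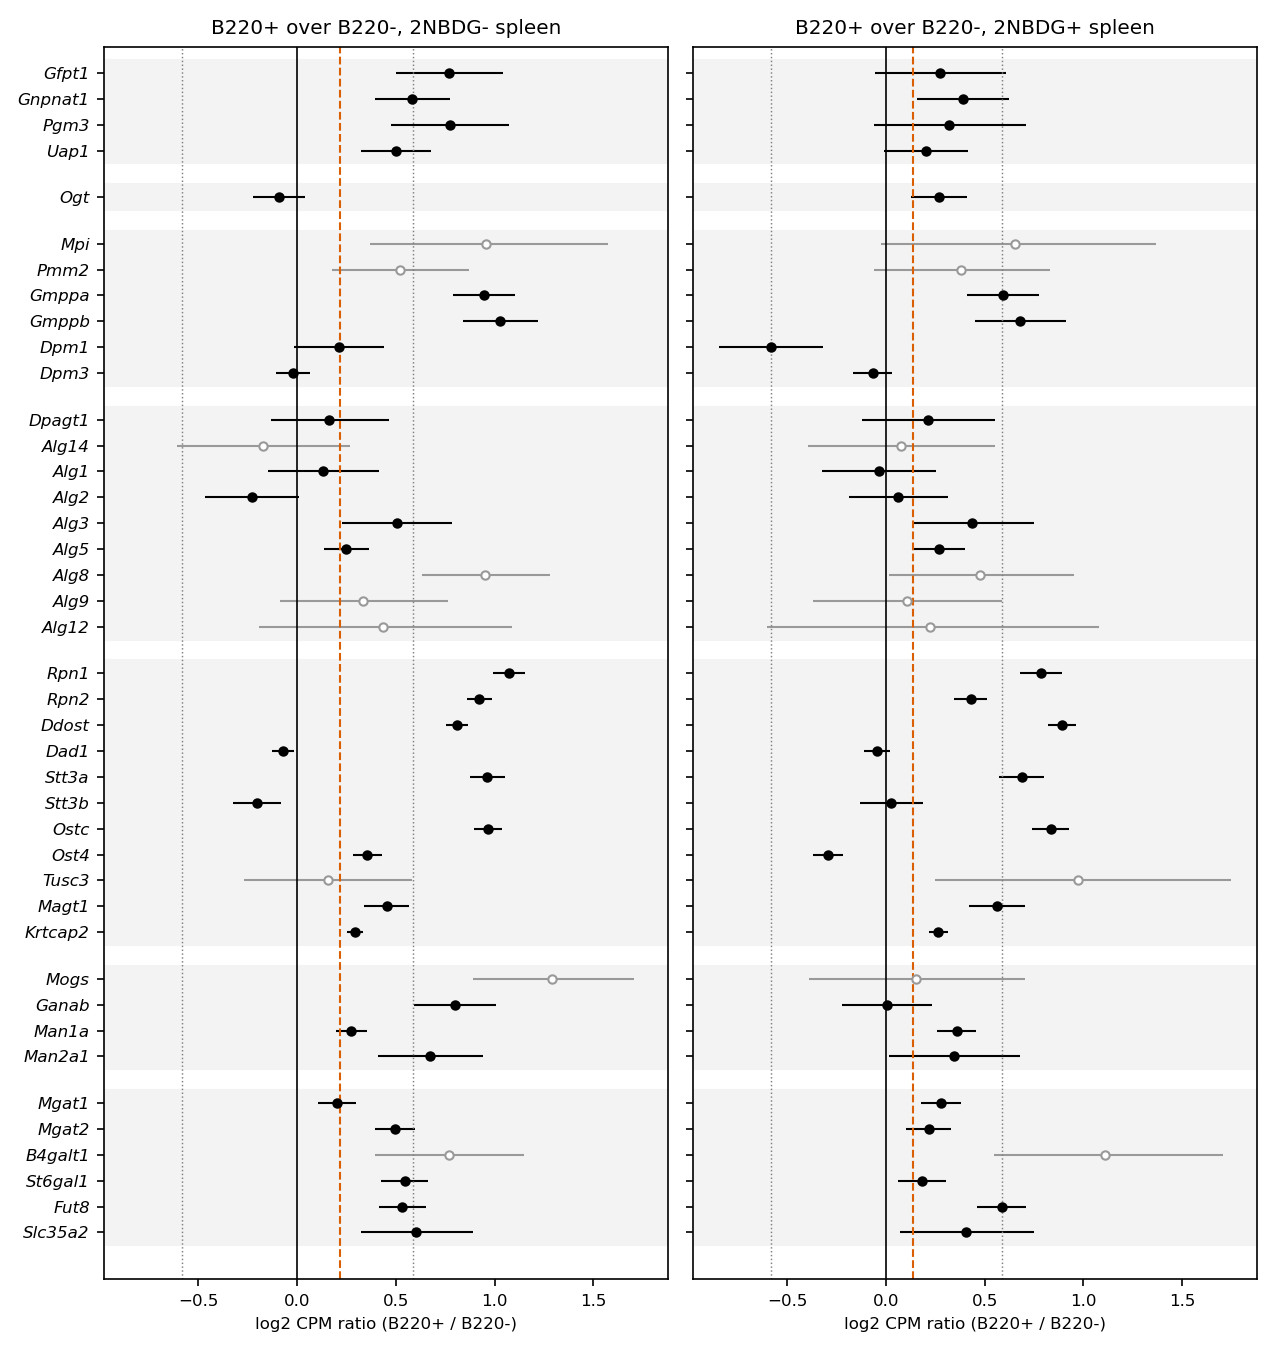
Log2 CPM ratio of B220+ over B220- cells in 2NBDG- (left) and 2NBDG+ (right) spleen for each gene, with exact 95% counting intervals; open grey symbols are genes with a mean below 25 CPM, dotted lines mark 1.5-fold, and the dashed line is the median of all genes tested. Rpn1, Ddost, Stt3a and Ostc lie to the right of the upper 1.5-fold line in both panels, while Dad1 and Stt3b lie near or below 0.

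Of the genes that were higher with B220, 5 of the 12 in 2NBDG- cells and 4 of the 7 in 2NBDG+ cells encode subunits of the oligosaccharyltransferase, which has 10 of the 32 genes. Rpn1 encodes ribophorin I, a subunit of both forms of the enzyme. It was at 722 CPM in B220+2NBDG- spleen, 343 in B220-2NBDG- spleen, 443 in B220+2NBDG+ spleen, 257 in B220-2NBDG+ spleen and 186 in bone marrow. Both B220+ libraries were thus above the 3 B220- libraries, and Rpn1 was 2.103-fold higher with B220 in 2NBDG- cells (95% counting interval 1.99 to 2.22) and 1.72-fold higher in 2NBDG+ cells (1.602 to 1.86). Intervals of this kind cover counting error only.

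Ostc, a subunit particular to the STT3A form, was at 912, 466, 589, 330.1 and 227 CPM in the same library order. It was 1.95-fold higher with B220 in 2NBDG- cells (1.86 to 2.05) and 1.78-fold in 2NBDG+ cells (1.67 to 1.90). Again both B220+ libraries were above the B220- libraries. Ddost, a shared subunit, had 1272, 726, 1032, 557 and 504 CPM, with ratios of 1.75 (1.69 to 1.82) and 1.85 (1.76 to 1.95). Rpn2, ribophorin II, had 982, 518, 616, 458 and 360 CPM; it was 1.90-fold higher in 2NBDG- cells (1.81 to 1.99) and 1.35-fold in 2NBDG+ cells (1.27 to 1.43).

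Not all subunits behaved alike. Dad1, a small shared subunit, was at 878, 923, 789, 815 and 754 CPM, and its B220 ratios were 0.95 (0.92 to 0.99) and 0.97 (0.93 to 1.01). Ost4, another small subunit, was 1.28-fold higher with B220 in 2NBDG- cells (1.21 to 1.35) and lower in 2NBDG+ cells, with a ratio of 0.81 (0.77 to 0.86). Krtcap2, which belongs to the STT3A form, was 1.23-fold and 1.20-fold higher. Magt1, a subunit of the STT3B form, was 1.37-fold higher (1.27 to 1.48) and 1.48-fold higher (1.34 to 1.63), and its rarer counterpart Tusc3 lay between 5.6 and 17.4 CPM. Magt1 made up 92.5% to 96.5% of the summed Magt1 and Tusc3 UMIs in the 5 libraries.

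The catalytic subunits differed from each other. Stt3a was at 539, 276, 363, 226 and 169 CPM, with B220 ratios of 1.95 (1.83 to 2.08) in 2NBDG- cells and 1.61 (1.49 to 1.74) in 2NBDG+ cells. Stt3b was at 180, 207, 141, 139 and 124 CPM, with ratios of 0.87 (0.80 to 0.94) and 1.02 (0.91 to 1.14). Stt3a therefore made up 75.0% of the summed Stt3a and Stt3b UMIs in B220+2NBDG- spleen (exact 95% binomial interval 73.7 to 76.2) and 72.0% in B220+2NBDG+ spleen (70.2 to 73.6). The share was 57.2% in B220-2NBDG- spleen (55.2 to 59.1), 61.9% in B220-2NBDG+ spleen (59.3 to 64.4) and 57.7% in bone marrow (55.3 to 60.1). This share does not depend on any library total, but 3' UMIs are not corrected for how well each transcript is captured, so it compares libraries and not the amounts of the 2 proteins. Without cycling cells it was 73.1% in B220+2NBDG- spleen and 56.5% in B220-2NBDG- spleen.

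Promoters of Stt3a and Stt3b are shown because the paired genes differ in pattern. RefSeq promoters (build GRCm38.p6, 250 bases before to 50 after a start) were given for 35 of the 41 genes and searched on both strands, with positions counted from 0 at the start. The 5 letters CCACG (capitals) are the part bound within the endoplasmic reticulum stress response element (ERSE), to which the factors ATF6 and XBP1 bind in other settings. They lay at position -106 of Stt3a and -239 of Stt3b, on the minus strand of chromosome 9 in both cases, and in 35.5% of 27025 promoters and 20 of the 35 overall.
Stt3a, chr9:36767704-36767748: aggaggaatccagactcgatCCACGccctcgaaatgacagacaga
Stt3b, chr9:115310683-115310718: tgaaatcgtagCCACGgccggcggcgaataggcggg
The letters were present in both promoters. The ERSE-II motif, which is ATTGG, any 1 base and then CCACG, so contains them, was found in 1 of the 35, that of Krtcap2 at position 17, and in 0.0444% of all promoters.
Krtcap2, chr3:89246481-89246509, plus strand: gggacacggATTGGACCACGgacggggcg

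In the hexosamine pathway, Gfpt1 encodes the first and rate-limiting enzyme, which converts fructose-6-phosphate to glucosamine-6-phosphate. Gfpt1 was at 55.4, 32.4, 37.9, 31.4 and 28.1 CPM in the same library order, with the highest value in B220+2NBDG- spleen and the other 4 close together. Its B220 ratio was 1.71 in 2NBDG- cells (1.42 to 2.06) and 1.21 in 2NBDG+ cells (0.96 to 1.52). Without cycling cells the log2 ratio of Gfpt1 in 2NBDG- cells was 0.48, against 0.77 with them, and no longer past 1.5-fold. Pgm3, the phosphoacetylglucosamine mutase, had 45.8, 26.8, 28.4, 22.8 and 18.9 CPM and ratios of 1.71 (1.39 to 2.11) and 1.248 (0.96 to 1.64). Gnpnat1, which acetylates glucosamine-6-phosphate, was 1.499-fold higher in 2NBDG- cells, just under the threshold (1.31 to 1.71), and Uap1, which makes the UDP-sugar, 1.41-fold higher (1.25 to 1.603). Together the 4 genes took 312 CPM in B220+2NBDG- spleen (exact 95% Poisson interval 299 to 326) and 165 to 231 CPM in the other libraries. Ogt, which uses the donor to modify nuclear and cytosolic proteins and belongs to no N-glycan step, had 161, 171, 194, 162 and 122 CPM and a ratio of 0.94 in 2NBDG- cells (0.86 to 1.03).

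The promoters of 3 of these 4 genes are shown because they hold part of the unfolded protein response element (UPRE). The promoter of the other, Gnpnat1, was not searched. All 4 genes were highest in B220+2NBDG- spleen, as were 55.2% of all genes tested. Whether the letters go with the levels was not tested. The UPRE, bound by XBP1 in other settings, has 8 letters; its last 7, GACGTGG, were found in Gfpt1 at position -123 and in Pgm3 at position 23. The first 7, TGACGTG, were found in Uap1 at position 1. Among all 27025 promoters 2.73% held the former and 2.22% the latter, on either strand, and the 2 motifs overlap. Capitals mark the match, which is in reverse complement (CCACGTC) in Gfpt1 and Pgm3 and so contains CCACG.
Gfpt1, chr6:87042596-87042845, plus strand: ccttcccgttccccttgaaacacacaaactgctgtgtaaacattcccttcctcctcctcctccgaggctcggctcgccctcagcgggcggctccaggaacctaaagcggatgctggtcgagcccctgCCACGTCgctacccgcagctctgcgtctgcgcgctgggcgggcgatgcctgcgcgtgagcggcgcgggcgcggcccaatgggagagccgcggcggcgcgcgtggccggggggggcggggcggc
Pgm3, chr9:86571802-86571830, minus strand: gcaaagctgggCCACGTCtgcgaggtctg
Uap1, chr1:170174946-170174974, minus strand: ttctcggtcgcTGACGTGtcgggccggca
A match is a run of letters in this window and not a measured binding site.

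Of the genes that supply activated mannose, Gmppa and Gmppb, for subunits of the enzyme that makes GDP-mannose, were higher with B220 in both gates. Gmppa was at 175, 90.7, 137, 90.9 and 72.2 CPM, with ratios of 1.93 (1.73 to 2.15) and 1.51 (1.33 to 1.71). Gmppb was at 125, 61.2, 92.0, 57.5 and 58.8 CPM, with ratios of 2.04 (1.79 to 2.33) and 1.602 (1.37 to 1.88). Both genes had their 2 highest values in the B220+ libraries, and Gmppa made up 55.1% to 61.3% of their summed UMIs. Dpm1, the catalytic subunit of dolichol-phosphate-mannose synthase, had 60.0, 51.8, 42.1, 63.0 and 46.9 CPM, and its ratio was 0.67 in 2NBDG+ cells (0.56 to 0.80), just inside 1.5-fold. Its stabilizing subunit Dpm3 was at 314 to 375 CPM in the 5 libraries. Exons of Gmppb and Dpm1 overlap another annotated gene on the same strand (Gm20529 and Gm20716), as do those of Gnpnat1 (the miRNA gene Gm25353), so the counts of these 3 genes are less certain. Mpi and Pmm2, the enzymes before this step, had means below 25 CPM, and Mpi ranged from 6.6 to 12.9 CPM.

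The genes for building the lipid-linked oligosaccharide number 9 here. Of the 5 at or above 25 CPM (Dpagt1, Alg1, Alg2, Alg3 and Alg5), 0 passed 1.5-fold in any of the 5 library comparisons. In these comparisons 1.65% to 18.3% of all genes tested passed in a given direction, so 0 of 5 says little. The log2 ratios of the 5 with B220 in 2NBDG- cells ran from -0.23 for Alg2 to 0.51 for Alg3. Dpagt1, which starts the oligosaccharide, was at 34.8, 31.1, 35.2, 30.4 and 20.9 CPM. Alg8, a glucosyltransferase below the mean of 25 CPM, was at 42.8, 22.1, 21.1, 15.2 and 14.9 CPM, a 2.88-fold span. Alg14, Alg9 and Alg12 had 3.2 to 18.8 CPM, with spans of 1.48-fold, 1.58-fold and 2.82-fold. Alg12 was the only 1 of the 35 genes whose promoter held a complete ERSE, which is CCAAT and CCACG with 9 bases between, at position -220; 0.137% of all promoters did.
Alg12, chr15:88819500-88819558, minus strand: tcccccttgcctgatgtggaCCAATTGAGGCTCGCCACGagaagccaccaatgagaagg

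Among trimming enzymes, Ganab, the catalytic subunit of glucosidase II, was at 95.6, 54.9, 69.99, 69.87 and 59.5 CPM. It was 1.74-fold higher with B220 in 2NBDG- cells (1.51 to 2.01) and had a ratio of 1.002 in 2NBDG+ cells (0.86 to 1.17). Man2a1, a Golgi mannosidase, was 1.596-fold higher in 2NBDG- cells (1.33 to 1.92), at 54.9 against 34.4 CPM. Man1a, another mannosidase, had 522, 431, 423, 329.8 and 197 CPM. Mogs, glucosidase I, was at 32.6 CPM in B220+2NBDG- spleen and 9.0 to 13.5 CPM in the others, and its promoter held TGACGTG at position -34.
Mogs, chr6:83115452-83115498, plus strand: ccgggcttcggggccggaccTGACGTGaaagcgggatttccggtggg

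In the Golgi, Slc35a2, the UDP-galactose transporter, was at 47.3, 31.1, 37.9, 28.6 and 25.5 CPM and 1.52-fold higher with B220 in 2NBDG- cells (1.252 to 1.85). Fut8, which adds core fucose, was at 248, 172, 303, 202 and 162 CPM, with ratios of 1.45 (1.33 to 1.57) and 1.501 (1.38 to 1.64). St6gal1, the sialyltransferase of antibody and cell-surface glycans, was at 248, 170.3, 251, 222 and 207 CPM. Mgat1 and Mgat2, which start the first and second branches, were at 260 to 372 and 196 to 337 CPM. B4galt1, a galactosyltransferase below the mean of 25 CPM, was at 29.0, 17.0, 19.1, 8.9 and 5.7 CPM.

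A further 51 glycosylation genes were listed for context, of which 19 were at or above 25 CPM. With B220, 6 of the 19 were at least 1.5-fold higher in 2NBDG- cells and 3 in 2NBDG+ cells, against 18.3% and 8.37% of all genes tested. In either gate 0 were lower (5.86% and 3.25%). Edem1, which directs misfolded glycoproteins to degradation, was at 2922 against 1410 CPM, 2.07-fold higher in 2NBDG- cells (2.02 to 2.13).

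2NBDG uptake was compared within each B220 gate. In B220+ spleen, 0 of the 32 genes were at least 1.5-fold higher in 2NBDG+ cells and 4 were lower, against 3.67% and 11.2% of all genes tested. The 4 were Rpn1, at 0.61 of its level in 2NBDG- cells (0.58 to 0.64), Pgm3 at 0.62 (0.51 to 0.76), Rpn2 at 0.63 (0.60 to 0.65) and Ostc at 0.65 (0.62 to 0.67). The median log2 ratio was -0.30 against -0.15 for all genes tested. When Jchain was left out of the total 0 of the 4 remained past 1.5-fold, and without cycling cells Rpn1 and Rpn2 did, while Pgm3 and Ostc had log2 ratios of -0.49 and -0.56. The share of higher genes among all those past 1.5-fold was 24.6%, and it was 53.4% without Jchain, 39.0% with TMM and 1.41% over all UMIs.

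In B220- spleen 0 of the 32 genes differed by 1.5-fold with 2NBDG in either direction (1.65% of all genes tested were higher and 4.61% lower). The median log2 ratio was -0.07, against -0.08 for all genes tested. Ost4 had the highest ratio, 1.43 (1.36 to 1.52), and Stt3b the lowest, 0.672 (0.605 to 0.746), just inside 1.5-fold. This median changed sign with the total. The share of higher genes among all those past 1.5-fold was 26.4%, and it was 39.1% without Jchain, 37.4% with TMM and 56.6% over all UMIs. Both comparisons share libraries with the B220 comparisons, so they are not separate evidence.

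Bone marrow was compared with splenic B220-2NBDG+ cells. Of the 32 genes 31 were below the spleen level, as were 74.6% of all genes tested, and the median log2 ratio was -0.26 against -0.16. Man1a was 1.5-fold lower or more, at 197 against 329.8 CPM, a ratio of 0.60 (0.55 to 0.65); 5.92% of all genes tested passed in that direction. Gmppb was the gene above the spleen level, with a ratio of 1.02 (0.86 to 1.22). Among IgM cells alone, Man1a was at 253 CPM in bone marrow and 371 in spleen and did not pass. Among IgG cells it was at 212 and 355 CPM, a ratio of 0.60 (0.47 to 0.76), on 84 and 117 cells. IgA cells made up 553 of 938 cells in bone marrow and 214 of 894 in spleen. In them the log2 CPM difference of Man1a from IgM cells was -0.69 and -0.79. The bone marrow to spleen ratio among IgA cells is not given here. The part of this isotype makeup in the ratio over all cells was not tested. The share of higher genes among all those past 1.5-fold was 23.8%, and it was 50.5% with TMM and 13.0% over all UMIs.

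Cycling cells moved with the comparison in B220+2NBDG- spleen, where 164 of 1215 cells cycled. Within that library 3 of the 32 genes were at least 1.5-fold higher in cycling cells and 6 at least 1.5-fold lower, against 20.8% and 13.4% of all genes tested. The 3 were of the hexosamine pathway: Gfpt1 1.79-fold (1.44 to 2.22), Pgm3 1.62-fold (1.27 to 2.05) and Uap1 1.598-fold (1.37 to 1.86). Lower in cycling cells were Ogt at 0.48 (0.40 to 0.56), Man1a at 0.52 (0.47 to 0.57), St6gal1 at 0.57 (0.50 to 0.65), Fut8 at 0.60 (0.53 to 0.68), Dpagt1 at 0.61 (0.43 to 0.85) and Mgat1 at 0.62 (0.55 to 0.69). Rpn1 had a ratio of 1.08 (1.01 to 1.15) and Ddost 0.92 (0.88 to 0.97). Without cycling cells, 8 of the 12 genes higher with B220 in 2NBDG- cells were still past 1.5-fold. The 4 that were not were Gfpt1, Pgm3, Man2a1 and Slc35a2, with log2 ratios of 0.48, 0.58, 0.56 and 0.57.

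The isotype of the cell, called from its heavy-chain UMIs, gave the only comparisons with a test, since each library held IgM, IgG and IgA cells. The libraries had 294 to 1079 IgM, 74 to 552 IgG and 77 to 553 IgA cells. UMIs were summed per library and isotype and tested with edgeR's quasi-likelihood test. Library was a blocking term, and p-values were adjusted (Benjamini-Hochberg) over the 7948 genes tested; all 41 genes were in it. Whether different animals gave the 5 libraries is not stated in the labels, and the p-values measure only the spread between these 5 libraries. Levels printed below are CPM, whereas the fitted log2 differences carry TMM scaling. Jchain took 7.70% to 16.8% of non-immunoglobulin UMIs in IgG cells, 11.6% to 25.3% in IgM cells and 10.7% to 37.5% in IgA cells; its part in CPM differences was not tested.

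Against IgM cells, 1 of the 41 genes rose in IgA cells and 5 fell, while 6.29% of all genes tested rose and 6.87% fell. The median fitted log2 difference was -0.01, as against 0.00 for all genes. In IgG against IgM cells 3 rose and 1 fell (2.59% and 3.70% of all genes), with a median of 0.13 against 0.00. In IgG against IgA cells 7 rose and 1 fell (4.94% and 4.63%), with a median of 0.11 against 0.00. These contrasts share the same sums.

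Stt3b (chr9:115242581-115310421, GRCm38) fell in both switched isotypes. It ranged from 187 to 251 CPM over the libraries in IgM cells, with a median of 204, from 48.7 to 139 in IgG cells (median 109) and from 61.1 to 196 in IgA cells (median 94.3). All 5 IgM values lay above all 5 IgG values, while the IgA value of B220+2NBDG- spleen, 196 CPM, lay within the IgM range. The log2 difference was -1.24 ± 0.18 (SE) in IgG against IgM cells (edgeR adjusted p = 0.000146) and -1.11 ± 0.18 in IgA against IgM cells (adjusted p = 0.000136), lower in 5 of 5 libraries each time.

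**Figure D3:**
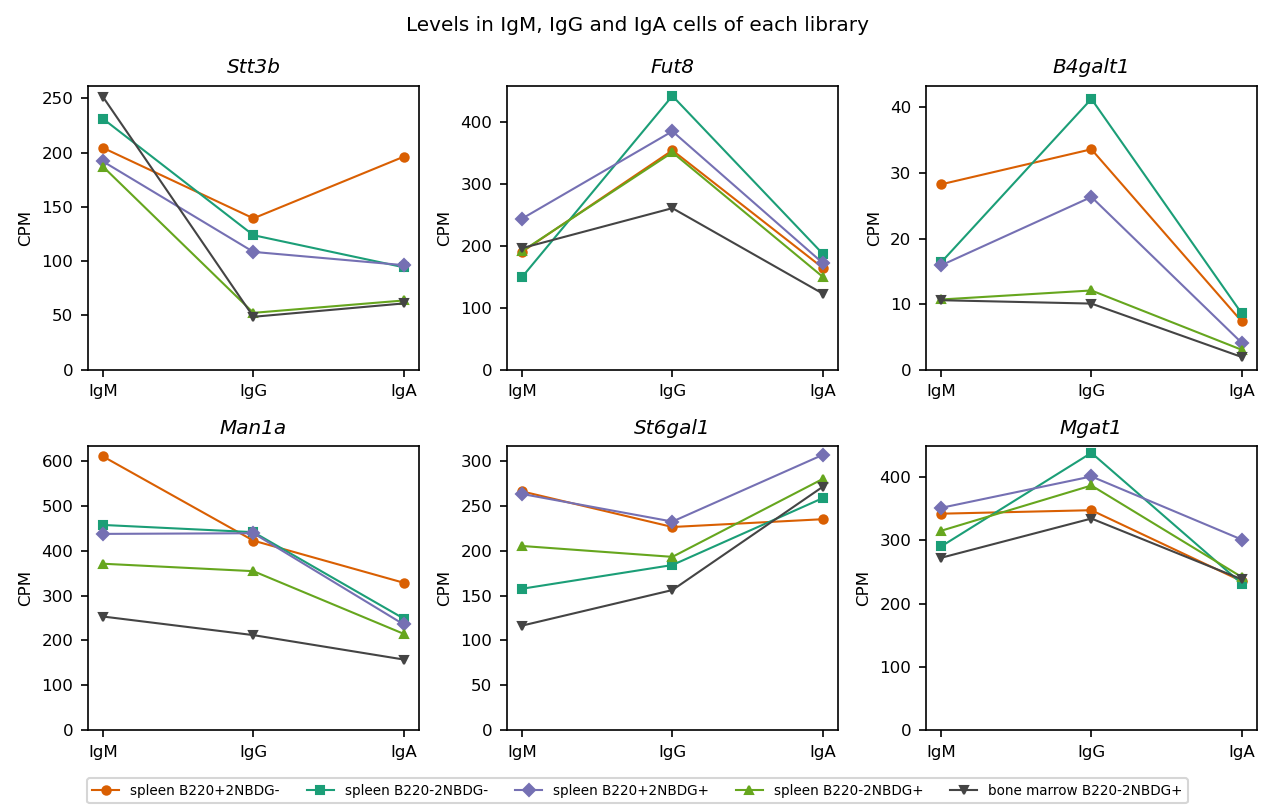
Levels (CPM) of 6 genes in IgM, IgG and IgA cells, with a line for each of the 5 libraries. Stt3b is highest in IgM cells of each library, Fut8 in IgG cells of each library, and Man1a and B4galt1 are lowest in IgA cells of each library.

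As a share of summed Stt3a and Stt3b UMIs, Stt3a took 46.1% to 72.1% in IgM cells, 75.8% to 84.1% in IgG cells and 70.4% to 81.2% in IgA cells. Within IgM cells it was 72.1% in B220+2NBDG- spleen, 64.1% in B220+2NBDG+ spleen, 51.3% in B220-2NBDG- spleen, 56.2% in B220-2NBDG+ spleen and 46.1% in bone marrow. The 2 B220+ libraries were thus above the 3 B220- libraries among IgM cells. Among IgG cells the same libraries had 80.2%, 78.9%, 77.6%, 84.1% and 75.8%, and the gates overlapped. Among IgA cells the order was not that of IgM cells: the B220+ libraries had 70.8% and 71.5%, B220-2NBDG- spleen 81.2%, B220-2NBDG+ spleen 71.6% and bone marrow 70.4%. Stt3b had the lowest p of the 41 genes in the test of whether an isotype contrast differed between B220+ and B220- libraries, 0.00090 unadjusted for IgA against IgM, but adjusted over all genes it was 0.40. Of the 123 such tests of the 41 genes, 4 had an unadjusted p under 0.05 and 0 passed adjustment by edgeR. Over all 7948 genes, 0 passed for IgA against IgM, 0 for IgG against IgA and 1 for IgG against IgM. The 0 among the 41 genes thus says little about them.

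**Figure D4:**
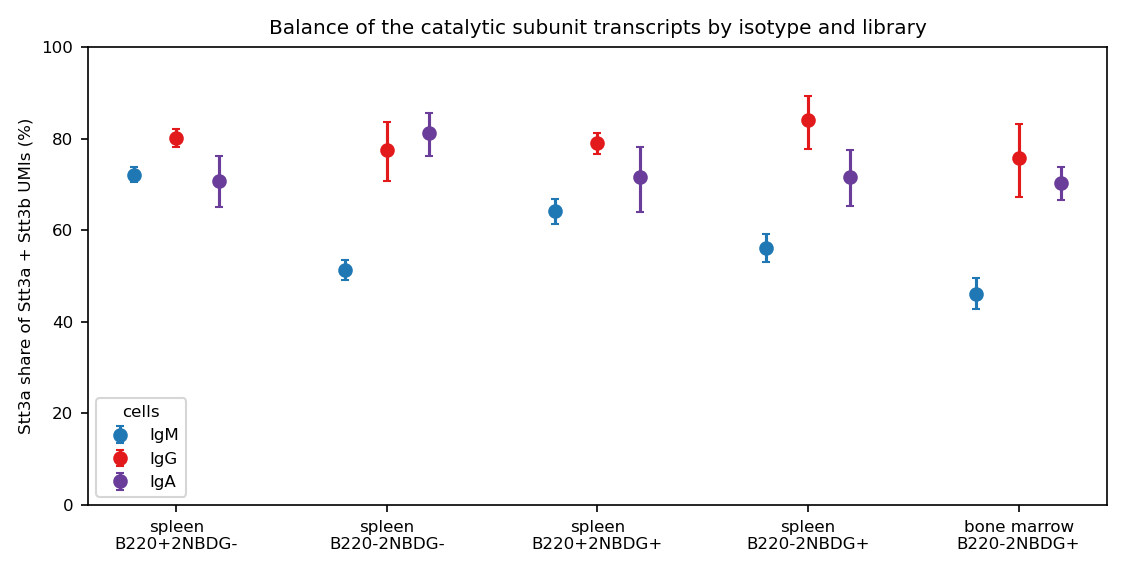
Share of Stt3a in the summed Stt3a and Stt3b UMIs (percent) of IgM, IgG and IgA cells in each library, with exact 95% binomial intervals. IgM cells run from 46.1% to 72.1% and lie below IgG cells in every library, while IgG cells stay between 75.8% and 84.1%.

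Fut8 (chr12:77238125-77476338) was highest in IgG cells. It ranged from 261 to 442 CPM in IgG cells (median 354), from 149 to 244 in IgM cells (median 191) and from 123 to 187 in IgA cells (median 164). All 5 IgG values lay above all values of the other isotypes. The log2 difference was 0.83 ± 0.11 against IgM cells (edgeR adjusted p = 2.9e-05) and 1.01 ± 0.12 against IgA cells (adjusted p = 3.0e-06), in 5 of 5 libraries for both.

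In IgA cells B4galt1 and Man1a were lowest. B4galt1 (chr4:40804602-40854005) ranged from 1.9 to 8.6 CPM in IgA cells, on 2 to 6 UMIs in a library, from 10.6 to 28.3 in IgM cells and from 10.1 to 41.3 in IgG cells. The IgA values lay below all others. The log2 difference was -1.69 ± 0.29 in IgA against IgM cells (edgeR adjusted p = 0.00022) and 2.16 ± 0.30 in IgG against IgA cells (adjusted p = 3.8e-05). Man1a (chr10:53904785-54076609) ranged from 157 to 329 CPM in IgA cells (median 236), 253 to 611 in IgM cells (median 438) and 212 to 442 in IgG cells (median 423). The ranges overlapped between libraries, but within each of the 5 libraries the IgA value was the lowest. Its log2 difference was -0.71 ± 0.10 in IgA against IgM cells (edgeR adjusted p = 2.4e-05) and 0.48 ± 0.11 in IgG against IgA cells (adjusted p = 0.0037).

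St6gal1 (chr16:23224740-23360350) rose in IgA cells. Its CPM was 235 to 307 there (median 272), 117 to 267 in IgM cells (median 206) and 156 to 233 in IgG cells (median 193). The IgA values lay above all IgG values, and above IgM in 4 of 5 libraries, B220+2NBDG- spleen being the exception. The log2 difference was 0.62 ± 0.14 against IgM cells (edgeR adjusted p = 0.0047), and IgG against IgA cells gave -0.67 ± 0.15 (adjusted p = 0.0060). The latter missed the threshold without splenic B220-2NBDG+ (adjusted p = 0.052).

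The other calls were smaller. Ddost was higher in IgG than in IgM cells by 0.43 ± 0.10 on the log2 scale (edgeR adjusted p = 0.0100) and than in IgA cells by 0.43 ± 0.10 (adjusted p = 0.0076), in 5 of 5 libraries each. Both calls were lost without B220+2NBDG+ spleen or without splenic B220-2NBDG+, with adjusted p of up to 0.083 and 0.071. Ganab differed by 0.59 ± 0.14 in IgG against IgA cells (adjusted p = 0.0057), a call that every fit leaving out 1 library kept, and by -0.38 ± 0.12 in IgA against IgM cells (adjusted p = 0.043), lost in 4 of those 5 fits. Mgat1 differed by 0.43 ± 0.11 in IgG against IgA cells (adjusted p = 0.011), lost without B220-2NBDG- spleen (0.060).

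The weakest calls were those of Dpm1, Dad1 and Gmppb. Dpm1 differed by 0.45 ± 0.14 in IgG against IgA cells (edgeR adjusted p = 0.046), Dad1 by -0.28 ± 0.09 in IgA against IgM cells (adjusted p = 0.033) and Gmppb by 0.43 ± 0.13 in IgG against IgM cells (adjusted p = 0.044). Of the 5 fits that left out a library, Dpm1 and Gmppb passed in 1, that without bone marrow, and Dad1 in 2, those without B220+2NBDG+ spleen or bone marrow. The calls that passed in all 5 such fits and under all 9 other settings were Stt3b and Man1a in IgA against IgM, B4galt1 in IgA against IgM and in IgG against IgA, Stt3b in IgG against IgM, and Fut8 in IgG against IgM and IgA cells.

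Of the 51 further glycosylation genes, 41 were tested. In IgA against IgM cells 3 rose and 4 fell, against 6.29% and 6.87% of all genes tested. In IgG against IgM cells 5 rose and 3 fell (2.59% and 3.70%). In IgG against IgA cells 2 rose and 1 fell (4.94% and 4.63%). St3gal6, another sialyltransferase, was higher in IgA than in IgM cells by 0.86 ± 0.19 on the log2 scale (edgeR adjusted p = 0.0031) and lower in IgG than in IgA cells by -1.82 ± 0.25 (adjusted p = 2.3e-05). Renbp, an epimerase of N-acetylglucosamine, was lower in IgA than in IgM cells by -1.52 ± 0.27 (adjusted p = 0.00031).

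The isotype makeup of the libraries differed, so the B220 comparison was repeated within isotypes. In 2NBDG- spleen, 15 of the 32 genes were at least 1.5-fold higher with B220 among IgM cells (20.5% of all genes tested), 0 among IgG cells (16.3%) and 5 among IgA cells (14.5%). At least 1.5-fold lower were 0, 0 and 1 (5.95%, 8.03% and 7.83%). Without cycling cells 13, 1 and 5 were higher (14.7%, 10.9% and 13.7%). The medians were 0.56, 0.12 and 0.09, against 0.23, 0.10 and 0.12 for all genes tested. With 1 library a group, the difference between isotypes was not tested. The B220- library held 74 IgG and 135 IgA cells in this comparison, and the B220+ library 77 IgA cells.

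Rpn1 was 2.50-fold higher with B220 among IgM cells (2.34 to 2.68), 1.29-fold among IgG cells (1.11 to 1.51) and 1.15-fold among IgA cells (0.98 to 1.35). In IgM cells of B220-2NBDG- spleen it was at 285 CPM, while IgG and IgA cells of the same library had 581 and 582 and the 3 isotypes of B220+2NBDG- spleen had 670 to 749. The IgM cells of the B220- library thus stood below the others. Ostc followed the same order, with ratios of 2.33 (2.19 to 2.47), 1.18 (1.03 to 1.35) and 1.15 (0.99 to 1.32), and 400 CPM in IgM cells of the B220- library against 759 and 748 in its IgG and IgA cells. Stt3a had ratios of 2.17 (2.01 to 2.34), 1.32 (1.10 to 1.58) and 1.17 (0.96 to 1.41). Ddost had 1.88 (1.79 to 1.97), 1.13 (1.01 to 1.254) and 1.05 (0.92 to 1.19).

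**Figure D5:**
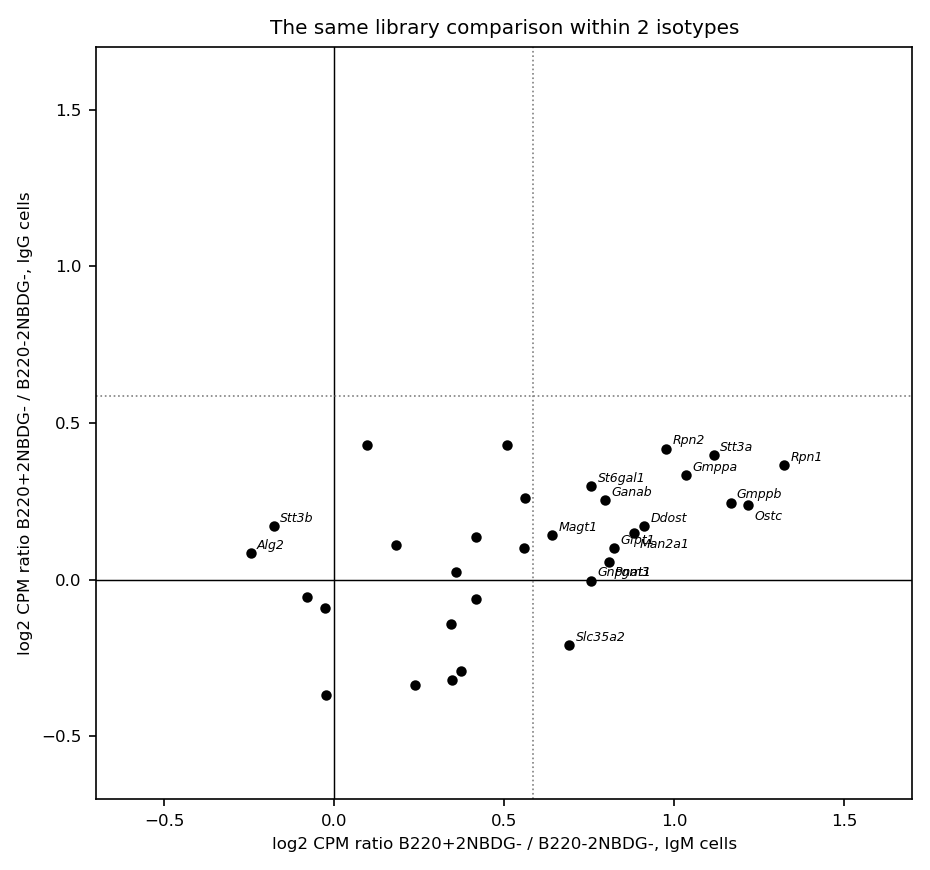
Log2 CPM ratio of B220+2NBDG- over B220-2NBDG- spleen for the 32 genes at or above 25 CPM, among IgM cells (x axis) and among IgG cells (y axis); dotted lines mark 1.5-fold. The 15 genes to the right of the vertical dotted line all lie below the horizontal one, and counting error is larger on the y axis, where the B220- library held 74 IgG cells.

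In 2NBDG+ spleen, the isotypes were closer: 5 of the 32 genes were at least 1.5-fold higher with B220 among IgM cells (6.46% of all genes tested), 4 among IgG cells (10.1%) and 8 among IgA cells (12.4%). In each isotype 1 was lower (3.19%, 5.92% and 7.83%). The medians were 0.21, 0.27 and 0.23, against 0.08, 0.07 and 0.10 for all genes tested.

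The counts in the 2NBDG and bone marrow comparisons also differed by isotype, but so did the shares of all genes tested. These differences between isotypes are thus not particular to the 32 genes, and they were not tested. In B220- spleen, where 0 of the 32 genes passed over all cells, 12 were at least 1.5-fold lower in 2NBDG+ cells among IgA cells and 1 was higher, against 32.0% and 7.34% of all genes tested. Among IgG cells 5 were lower and 2 higher (14.4% and 11.6%), and among IgM cells 0 and 0 (3.73% and 2.39%). The medians were -0.48 in IgA, -0.33 in IgG and 0.03 in IgM cells, against -0.34, -0.08 and -0.01 for all genes tested. Ostc in IgA cells was at 264 CPM in 2NBDG+ and 748 in 2NBDG- cells, a ratio of 0.35 (0.30 to 0.41), and Rpn1 was at 209 and 582 CPM, a ratio of 0.36 (0.30 to 0.43). These rest on 214 and 135 IgA cells.

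In B220+ spleen, 8 of the 32 genes were lower with 2NBDG among IgM cells (13.0% of all genes tested), 3 among IgG cells (12.8%) and 9 among IgA cells (35.1%). Higher were 0, 0 and 1 (3.99%, 6.52% and 9.31%). In bone marrow against spleen, 2 of the 32 were lower among IgM cells (6.55%), 9 among IgG cells (23.2%) and 1 among IgA cells (6.46%), and 0, 1 and 0 were higher (3.73%, 4.73% and 3.3%). The medians were -0.19, -0.33 and -0.20, against -0.04, -0.22 and -0.08 for all genes tested. Stt3a in IgG cells was at 153 CPM in bone marrow and 278 in spleen, a ratio of 0.55 (0.42 to 0.72), on 84 and 117 cells.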

How the data were processed

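The authors deposited raw UMI counts per gene and cell barcode, made with Cell Ranger 2.1 on build GRCm38, per the submitters' processing notes; the annotation and barcode filter were not given in the sources used here. The 41 genes, the further lists and the rule for naming genes were chosen with earlier results of these data known. Gene positions and 266 immunoglobulin genes came from GENCODE M21. Cells with UMIs of at least 3 of 8 T cell markers were left out, and no doublet caller was run. A cell was cycling with at least 3 UMIs of 31 cell cycle genes after thinning to 1000 non-immunoglobulin UMIs, and had an isotype with at least 10 heavy-chain UMIs, 70% or more from 1 gene. Library ratios used counts raised to at least 3 UMIs, with exact 95% conditional binomial intervals. Isotypes were tested with edgeR 4.0.16 (TMM, filterByExpr, library as block; the pairing is that isotypes come from the same library) and DESeq2 1.42.0 as an alternative. Values were named for genes past 1.5-fold or past the test (up to 12 per contrast), and for 3 paralog pairs. The values of 1 further glycosylation gene that met the naming rule are not reported here. The calculations were tested on simulated data. For IgA against IgM, the isotype fit recovered 39 of 100 genes changed 1.5-fold and 72 of 100 changed 2-fold, with 3 false calls. A gene that did not pass may thus still differ.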

Additional observations from a re-analysis of the deposited data

Results flagged for a closer look

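Over the 5 libraries, 123 sets of within-library isotype differences (41 genes, 3 contrasts) were screened for 1 library far from the other 4, and 6 were found; chance flags about 1 set in 20. In all 6 the library was B220-2NBDG- spleen. In IgA against IgM cells its log2 CPM difference was 1.03 for Rpn1 (others -0.41 to -0.09), 0.56 for Ddost (others -0.31 to -0.24) and 0.65 for Mgat2 (others -0.16 to 0.05). In IgG against IgM cells it was 0.84 for Gmppa (others 0.13 to 0.23), 0.92 for Ostc (others -0.06 to 0.19) and -0.40 for Alg1 (others -0.15 to -0.05). That library held 74 IgG and 135 IgA cells.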

How the results depend on the processing

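Each library was left out in turn and the other settings were changed one at a time; direction was kept for every gene called in a library comparison. With all UMIs as the total, the median log2 ratio of the genes was 1.03 for B220 in 2NBDG- cells (27 genes higher), 0.027 for B220 in 2NBDG+ cells (2 higher, 1 lower), -0.89 with 2NBDG among B220+ cells (25 lower), 0.12 among B220- cells (1 higher, sign reversed) and -0.38 for bone marrow (4 lower). Without Jchain these were 0.28 (6 higher), 0.13 (3 higher, 1 lower), -0.14 (0 lower), 0.0043 (1 higher, sign reversed) and -0.21. With TMM they were 0.39, 0.18 (1 lower), -0.22, -0.0046 (1 higher) and -0.10. Among IgM cells they were 0.56, 0.21 (1 lower), -0.28 (8 lower), 0.029 (sign reversed) and -0.19 (2 lower). Without cycling cells and Jchain, a setting chosen after seeing the data, they were 0.31 (7 higher), 0.14 (3 higher, 1 lower), -0.14 (0 lower), 0.016 (1 higher, sign reversed) and -0.21. Over all genes tested, in the same order, the medians were 0.75, -0.11, -0.74, 0.11 and -0.28 with all UMIs. They were -0.011, -0.0071, 0.012, -0.0065 and -0.11 without Jchain, and 0.11, 0.044, -0.061, -0.015 and -0.0018 with TMM. In the last 2 settings they were 0.23, 0.084, -0.15, -0.0081 and -0.036, and -0.029, -0.0076, 0.025, -0.0069 and -0.11. With all UMIs 2297 of the 3513 genes were higher with B220 among 2NBDG- cells and 2374 lower with 2NBDG among B220+ cells.

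Without cycling cells alone, the median for 2NBDG in B220+ cells was -0.26, and 1 gene was lower with 2NBDG among B220- cells and 1 with B220 among 2NBDG+ cells. Without cells over 3 times the median UMIs, B220 in 2NBDG- cells gave 0.52. Requiring 25 CPM and 50 UMIs in the higher library gave 0.53 for B220 among 2NBDG- cells and, with 2NBDG among B220+ cells, -0.33 and 7 lower. With no filter, 8 genes were lower with 2NBDG among B220+ cells, 2 among B220- cells and 3 in bone marrow, where 1 was higher. Means over cells gave -0.24 (2 lower) with 2NBDG among B220+ cells, 1 lower among B220- cells, 1 lower with B220 among 2NBDG+ cells and -0.31 (2 lower) for bone marrow. In the order of mention, the medians over all genes tested were -0.10, 0.21, 0.24, -0.17, -0.12 and -0.17. The counts in this paragraph are given without the shares of all genes tested. The causes of these changes were not tested.

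Of isotype calls in IgA against IgM cells, 2 genes rose with DESeq2, without cells over 3 times the median UMIs, or with 90% of heavy-chain UMIs from 1 gene; without cycling cells 2 rose and 3 fell. With all UMIs as library size 3 fell in IgA against IgM, 1 rose in IgG against IgM and 2 rose in IgG against IgA cells. Of the 7948 genes tested, 451 fell, 101 rose and 287 rose in the same order, against 546, 206 and 393 in the main fit. With no replicate block, the library pairing being dropped, 0 rose and 3 fell in IgA against IgM, 1 rose and 1 fell in IgG against IgM, and 3 rose and 0 fell in IgG against IgA cells. Over all genes tested, 184 rose and 212 fell in IgA against IgM without the block, against 500 and 546 with it. In IgG against IgM 17 rose and 49 fell (206 and 294 with it), and in IgG against IgA 157 and 149 (393 and 368). Leaving out 1 library gave 1 to 3 rising and 3 to 4 falling in IgA against IgM cells. It gave 1 to 4 rising and 1 falling in IgG against IgM, and 5 to 7 rising and 0 to 1 falling in IgG against IgA cells. Library comparisons rest on 1 library a group, and genes under 25 CPM on few UMIs.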
